A study of Mus musculus with 95 samples.

Results

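Islet libraries with a high ratio of glucagon to insulin transcripts were set against those with a low one. The libraries were chosen by their own counts of the 2 hormone transcripts. For each library the log2 of the Gcg count over the Ins2 count was formed; the 15 libraries with the highest values made the high tail, the 15 with the lowest made the low tail, and the other 65 of the 95 libraries belonged to neither. The libraries are poly(A) RNA-seq of pancreatic islets of Diversity Outbred founder-strain mice, all kept on a high-fat, high-sugar diet given as 45% fat. The labels give neither strain, sex nor age per library, and nothing in them says that each library came from its own animal. The tails are therefore groups cut from measured values and not treatment groups, and every difference between them is given as a description without a test. Total counts ran from 19361236 to 31035895 in the high tail and from 16411809 to 34357253 in the low tail.

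An islet is a small organ of several hormone-secreting cell types. Alpha cells make glucagon, encoded by Gcg, which raises blood glucose; beta cells make insulin, encoded in the mouse by Ins1 and Ins2, which lowers it; delta cells make somatostatin, encoded by Sst, which restrains both. Alpha cells express transcription factors such as Irx1, Irx2 and Pou3f4, and beta identity is kept by Pdx1, Nkx6-1 and Mafa. In bulk islet RNA, fewer cells of a type and less RNA per cell cannot be told apart.

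The proximal promoters of 3 hormone genes are shown because these transcripts set or accompanied the ratio. Each is the RefSeq window of 300 bases from GRCm38.p6, 250 bases before to 50 after the annotated start, 5′ to 3′ on the gene's strand; Gcg lies at chr2:62483604-62483903 on the minus strand, Sst at chr16:23890795-23891094 on the minus strand and Ins1 at chr19:52264047-52264346 on the plus strand. Capitals mark matches, on either strand, to the E-box CATCTG, to the cyclic AMP response element TGACGTCA, to the MAF recognition motif TGCTGA and to the homeodomain core TAATTA.
Gcg: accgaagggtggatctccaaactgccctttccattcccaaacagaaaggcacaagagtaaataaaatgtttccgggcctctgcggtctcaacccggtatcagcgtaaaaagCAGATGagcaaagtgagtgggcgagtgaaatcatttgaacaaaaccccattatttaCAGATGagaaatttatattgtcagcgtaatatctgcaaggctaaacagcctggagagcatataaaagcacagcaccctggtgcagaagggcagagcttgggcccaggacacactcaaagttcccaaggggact
Sst: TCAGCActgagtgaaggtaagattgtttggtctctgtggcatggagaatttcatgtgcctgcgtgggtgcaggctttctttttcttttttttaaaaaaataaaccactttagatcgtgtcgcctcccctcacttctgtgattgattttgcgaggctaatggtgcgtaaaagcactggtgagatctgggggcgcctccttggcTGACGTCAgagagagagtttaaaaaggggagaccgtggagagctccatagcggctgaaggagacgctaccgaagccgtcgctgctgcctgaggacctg
Ins1: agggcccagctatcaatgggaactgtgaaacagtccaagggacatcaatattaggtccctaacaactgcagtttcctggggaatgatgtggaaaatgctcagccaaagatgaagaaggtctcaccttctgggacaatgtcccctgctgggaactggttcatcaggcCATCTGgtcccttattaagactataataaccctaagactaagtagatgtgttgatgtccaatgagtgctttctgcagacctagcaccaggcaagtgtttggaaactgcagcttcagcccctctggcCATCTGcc
Gcg and Ins1 each held 2 E-box matches and Sst held 1 cyclic AMP element and 1 MAF recognition motif; none of these matches overlapped. Among all 32851 RefSeq promoter windows of that length, 17.2% held the E-box, 1.79% the cyclic AMP element, 19.5% the MAF recognition motif and 5.29% the homeodomain core, which had 0 matches in these 3 windows. A match describes the letters and does not show binding.

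The log2 ratio ran from -2.10 to -0.75 in the high tail, with a median of -1.60, and from -5.42 to -3.82 in the low tail, with a median of -4.13. As a share of Gcg plus Ins2 counts, Gcg took 19.0% to 37.3% in the high tail (median 24.8%) and 2.28% to 6.60% in the low tail (median 5.42%). At the thresholds the library just inside the high tail had -2.0946 and the one just outside it -2.3112; the library just inside the low tail had -3.8231 and the one just outside it -3.8229. The low tail thus ends at no gap in the values.

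**Figure D1:**
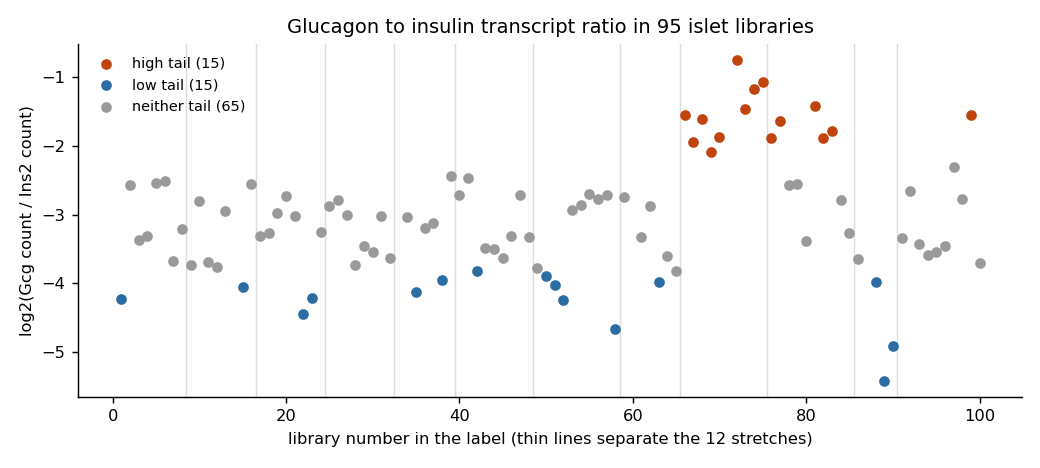
The log2 ratio of Gcg to Ins2 counts (vertical) is plotted for every library against the number in its label (horizontal), with the tails coloured. All 9 libraries numbered 66 to 75 and 5 of the 10 numbered 76 to 85 are in the high tail, and no stretch holds libraries of both tails.

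The tails followed the numbering of the libraries. In 12 stretches of consecutive numbers, taken over from earlier results on these libraries, the high tail consisted of all 9 libraries numbered 66 to 75, 5 of the 10 numbered 76 to 85 and library 99. The low tail was spread over 8 stretches, with 4 libraries of those numbered 49 to 58 and 3 of the 4 numbered 86 to 90. There were 0 stretches with libraries of both tails, and 57.1% of the variance of the ratio lay between stretches. What the stretches stand for is not given in the labels. The ratio and the stretch cannot be told apart in the tail comparison, so each result is also given inside stretches.

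Both hormone transcripts contributed to the ratio, Ins2 unevenly across the high tail. Both overlapped between the tails, Gcg through library 69 alone. Gcg had 9246 to 41940 CPM (counts scaled to the same library total) in the high tail with a median of 25900, against 2541 to 9756 CPM in the low tail with a median of 7664. Ins2 had 39490 to 125900 CPM in the high tail with a median of 72120. In the low tail it had 72480 to 166900 CPM with a median of 143700. Within the high tail, Ins2 had 39490 to 83210 CPM in libraries 66 to 75 and 71570 CPM in library 99. The 5 high-tail libraries of 76 to 85 had 95700 to 125900 CPM. Their median of 112500 lay near the median of 111900 over all 95 libraries. The other 5 libraries of 76 to 85 had 116800 to 142400 CPM, which overlapped with those values. Over all 95 libraries the SD of log2 CPM was 0.77 for Gcg and 0.49 for Ins2. These values chose the libraries and support nothing further.

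The second insulin gene moved less than Ins2. Ins1 had 28200 to 55240 CPM in the high tail with a median of 46660, against 27750 to 67520 CPM in the low tail with a median of 54980, and the tails overlapped almost throughout. The tail difference, the median of log2(CPM + 0.5) in the high tail minus that in the low tail, was -0.24 for Ins1 and -0.87 for Iapp, which encodes amylin, the peptide co-secreted with insulin. Iapp had 4384 to 13790 CPM in the high tail with a median of 9308, against 7680 to 18770 CPM in the low tail with a median of 16970.

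Across the 15837 genes that passed the filter on low values, Gcg and Ins2 left out, 865 were at least 2-fold higher in the high tail, 5.46% of those tested, and 498 were at least 2-fold lower, 3.14%. The tails did not overlap for 38 genes that were higher in the high tail, 0.24%, and for 1 that was lower, 0.00631%, which was A330050F15Rik, named after its value was seen. These last counts rest on few libraries: they were 5 and 3 when libraries 91 to 100, and with them library 99, were left out before ranking, and 0 and 0 with 20 libraries a tail. The median tail difference over all these genes was 0.14; with TMM scaling, which equalises the bulk of genes between libraries, it was 0.00 and the counts were 717 higher and 566 lower. Differences are read against that shift.

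To ask which genes follow the ratio outside the tails, each gene was fitted in the 65 libraries of neither tail, with the log2 ratio as a covariate and the 12 stretches as a factor (edgeR quasi-likelihood test, Benjamini-Hochberg adjustment over all genes kept). The slope is the log2 change in expression per doubling of the ratio, compared inside stretches only. At an adjusted p under 0.05, 612 genes rose with the ratio, 3.86% of those tested, and 777 fell, 4.91%. Of the 865 genes 2-fold higher in the high tail, 126 rose in this fit and 5 fell; of the 498 that were 2-fold lower, 58 fell and 14 rose. The covariate is the same ratio that ranked the libraries, so the slopes come from other libraries than the tails but not from another measure. On library totals in place of TMM, the fit called 120 rising and 33 falling genes, and a call that this ends is marked below.

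The alpha cell transcription factors were higher in the high tail and also rose inside stretches. All 5 factors on the list were at least 2-fold higher in the high tail, beside 5.46% of all genes, with a median tail difference of 1.63. All 5 rose in the fit, beside 3.86% of all genes, with a median slope of 0.60 beside 0.01 for all genes. Irx1, an Iroquois factor, had 8.55 to 30.7 CPM in the high tail with a median of 19.1, against 1.77 to 8.44 CPM in the low tail with a median of 4.59. The tails of Irx1 did not overlap.

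Irx2, the neighbour of Irx1 on chromosome 13, had 8.24 to 39.5 CPM in the high tail with a median of 23.1, against 3.01 to 10.8 CPM in the low tail with a median of 7.12. The tails of Irx2 overlapped through library 69 alone, at 8.24 CPM, with the next high-tail library at 13.0 CPM. Genes of digestive enzyme (acinar) cells took 31.9% of counts in library 69, and the bearing of this was not tested. Pou3f4, an X-linked POU factor, was near the detection limit, with 0.72 to 3.40 CPM in the high tail and 0 to 2.03 CPM in the low tail. In the libraries of neither tail the slope was 0.58 ± 0.09 (SE) for Irx2 (edgeR, adjusted p = 2.49e-05), 0.60 ± 0.12 for Irx1 and 0.78 ± 0.17 for Pou3f4. In each of the 10 stretches with at least 2 libraries of neither tail, the one with the highest ratio was set beside the one with the lowest. The highest-ratio library had the higher level in 8 of 10 stretches for Pou3f4 and in 7 of 10 for Irx1 and Irx2. These pairs come from the same libraries as the slopes. Xist, described below, was also higher in the highest-ratio library in 10 of 10 of these pairs. In this and later counts of stretches, the ratio and the level of Xist therefore cannot be told apart.

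**Figure D2:**
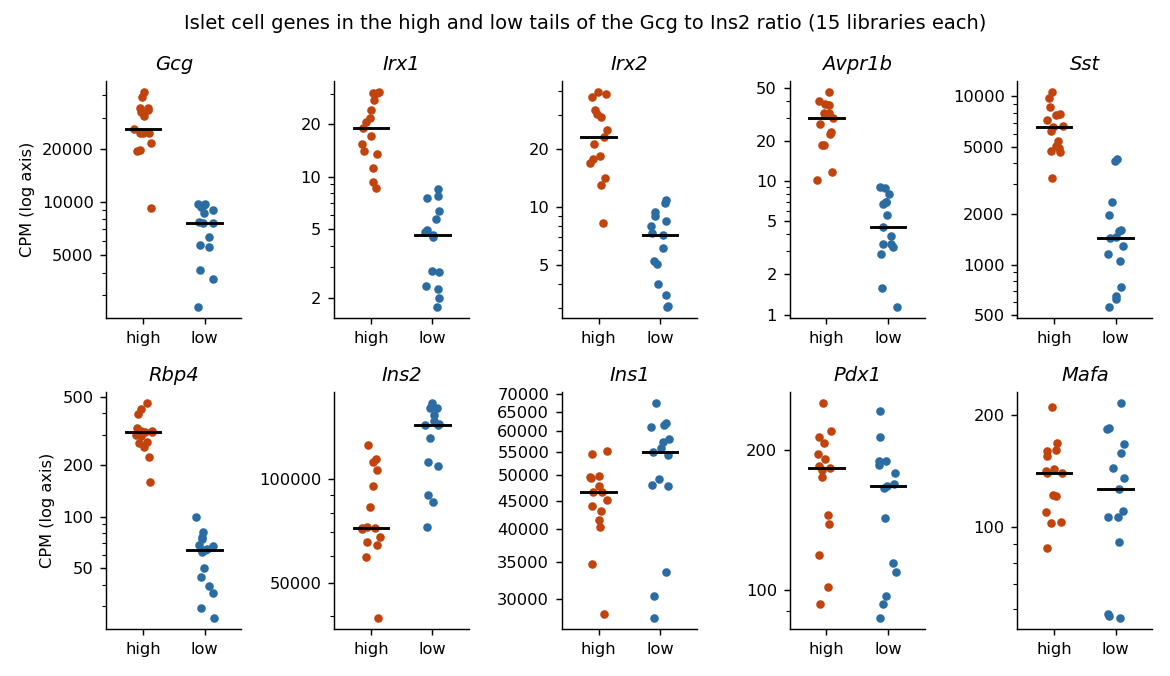
CPM on log axes for 10 islet genes in the 15 libraries of the high tail (left in each panel) and the 15 of the low tail (right), 1 point per library with a bar at the median. Irx1, Avpr1b and Rbp4 do not overlap between the tails. Gcg, Irx2 and Sst overlap through library 69 alone, and Ins1, Pdx1 and Mafa overlap widely.

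The size of the tail difference depended on the stretches numbered 66 to 85. When libraries were ranked by the ratio minus the median of their own stretch, only 3 of the 15 high-tail libraries stayed in the high tail, and the median difference of the alpha factor list was 0.48. With libraries 66 to 85 left out before ranking, an alternative added after seeing the data, it was 0.77. Inside the stretch 76 to 85, the 5 high-tail libraries had 19.1 to 30.4 CPM of Irx1 and the other 5 had 11.2 to 17.0 CPM, and Irx2 had 24.9 to 39.5 CPM in those 5 and 16.3 to 22.5 CPM in the others. Irx1 and Irx2 did not overlap within the stretch, while Pou3f4 did. The same 5 high-tail libraries had 764 to 1078 CPM of Xist and the other 5 had 1.51 to 9.14 CPM, so that the ratio and the level of Xist cannot be told apart within this stretch.

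Genes for surface and secreted proteins of alpha cells were less uniform. Of 9 on the list, 4 were at least 2-fold higher in the high tail and 1 was at least 2-fold lower. In the fit 3 rose and 1 fell. The shares over all genes were 5.46%, 3.14%, 3.86% and 4.91%. Avpr1b, a vasopressin receptor that in mouse islets marks alpha cells, had 10.2 to 46.9 CPM in the high tail with a median of 30.0, against 1.13 to 9.05 CPM in the low tail with a median of 4.56, and its tails did not overlap. Its slope of 0.90 ± 0.10 (edgeR, adjusted p = 5.39e-09) was the largest of the list, and it was higher in the highest-ratio library in 9 of 10 stretches. Smarca1, a chromatin remodeller, rose by 0.33 ± 0.08 and Gria3, a glutamate receptor subunit, by 0.32 ± 0.09 per doubling, and neither passed on library totals.

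Slc38a5, a glutamine transporter known to increase in alpha cells of mice lacking glucagon signalling, had 24.4 to 66.5 CPM in the high tail with a median of 45.6, against 4.59 to 23.9 CPM in the low tail with a median of 9.38. Its tails did not overlap, but its slope of 0.14 ± 0.22 did not pass the test (edgeR, adjusted p = 0.72). It was higher in the highest-ratio library in 9 of 10 stretches. Gc, the vitamin D binding protein and an alpha cell gene, went the other way. It had 19.8 to 82.1 CPM in the high tail with a median of 39.3, against 21.0 to 378 CPM in the low tail with a median of 120, and fell by 0.47 ± 0.12 per doubling of the ratio in the libraries of neither tail (edgeR, adjusted p = 0.0080). On library totals Gc no longer passed the test, with a slope of -0.40. Ttr, the thyroid hormone carrier transthyretin, differed by 0.74 between the tails and had a slope of 0.00 ± 0.09.

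Delta cell transcripts were higher in the high tail along with those of alpha cells, although the rule used no delta gene. All 4 listed delta genes were at least 2-fold higher, beside 5.46% of all genes, with a median tail difference of 2.06. In the fit 3 of the 4 rose, beside 3.86% of all genes, with a median slope of 0.33. Sst had 3274 to 10660 CPM in the high tail with a median of 6617. In the low tail it had 558 to 4270 CPM with a median of 1445. The tails of Sst overlapped through library 69 alone, and the next lowest high-tail value was 4708 CPM. Rbp4, the retinol carrier that mouse delta cells express strongly, had 160 to 462 CPM in the high tail with a median of 310, against 25.6 to 99.2 CPM in the low tail with a median of 63.7. Hhex, the homeobox factor that maintains delta cells, had 21.4 to 73.7 CPM in the high tail with a median of 35.1, against 4.46 to 20.4 CPM in the low tail with a median of 8.89. Rbp4 and Hhex did not overlap between the tails.

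The slope was 0.42 ± 0.06 for Rbp4 (edgeR, adjusted p = 9.77e-06), 0.37 ± 0.07 for Hhex and 0.29 ± 0.08 for Sst, and Sst did not pass on library totals. For Ghsr, the ghrelin receptor of delta cells, it was 0.28 ± 0.12 and did not pass the test (edgeR, adjusted p = 0.12). The highest-ratio library had the higher level in 8 of 10 stretches for Rbp4 and Hhex, in 6 of 10 for Sst and in 5 of 10 for Ghsr. Within libraries 76 to 85, Sst had 4757 to 6656 CPM in the 5 of the high tail and 3095 to 3879 CPM in the other 5, with no overlap, and Rbp4 and Hhex did not overlap there either. With ranking inside stretches the median tail difference of the delta list was 0.67.

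Other islet hormones did not move as a block. Pyy, peptide YY, had 386 to 3625 CPM in the high tail with a median of 1638, against 216 to 840 CPM in the low tail with a median of 467, but its slope of 0.26 ± 0.14 did not pass the test. Ppy, pancreatic polypeptide, had a tail difference of 0.23 and a slope of -0.05 ± 0.20, with 337 to 2516 CPM in the high tail and 370 to 2746 CPM in the low tail. Ghrl, ghrelin, stayed under 10 CPM in both tails, with a tail difference of -0.40. Of the 9 islet receptor genes kept, 2 were 2-fold higher and 0 were 2-fold lower, beside 5.46% and 3.14% of all genes. In the fit 1 rose and 1 fell, beside 3.86% and 4.91%. Gpr119, a lipid-sensing receptor, rose by 0.61 ± 0.11 per doubling. Adra2a, the adrenergic receptor that restrains insulin release, fell by 0.25 ± 0.08, a call lost on library totals.

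Of 10 beta cell transcription factors, 0 were 2-fold higher or lower and 0 passed the test in the fit in either direction. Over all genes 8.61% were 2-fold different and 8.77% were called, so 0 of 10 is near the share over all genes. Their tail differences ran from -0.20 to 0.52 and their slopes from -0.14 to 0.13. Pdx1, the factor needed for beta cell formation and insulin transcription, had 93.2 to 254 CPM in the high tail with a median of 183, against 87.01 to 243 CPM in the low tail with a median of 167. Nkx6-1 had 299 to 719 CPM in the high tail with a median of 531, against 288 to 598 CPM in the low tail with a median of 525. Mafa, the maturity factor of adult beta cells, had 87.5 to 210 CPM in the high tail with a median of 140, against 56.7 to 216 CPM in the low tail with a median of 126. The tails overlapped almost entirely for these 3 genes.

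**Figure D3:**
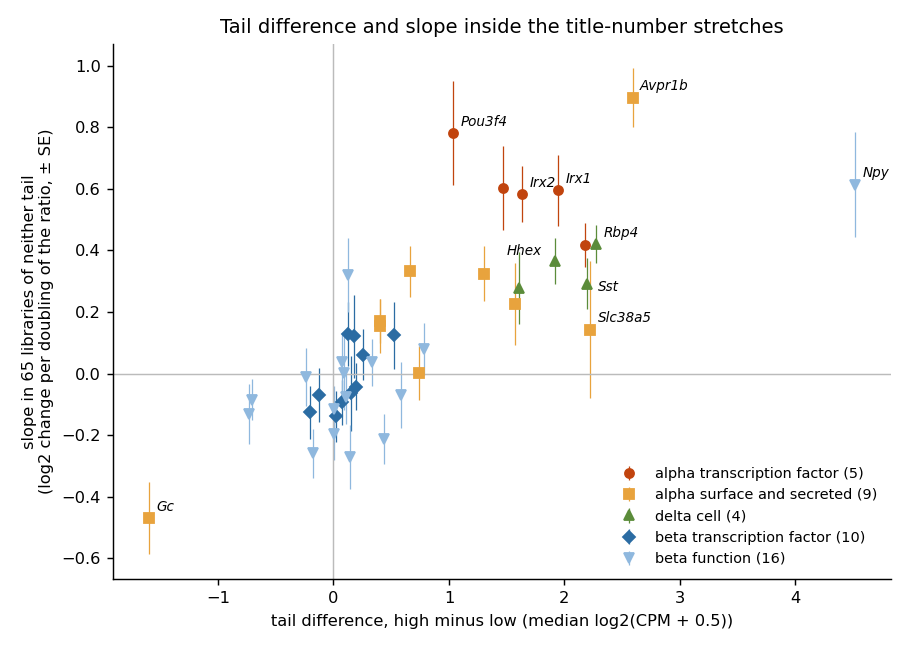
For each kept member of 5 lists, the tail difference (horizontal, high minus low, in log2 units) is plotted against the slope on the log2 ratio in the 65 libraries of neither tail (vertical, ± SE). The alpha factors and delta genes lie in the upper right, the beta factors around 0 on both axes, and Gc in the lower left.

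Of 16 genes of beta cell function 1 was 2-fold higher, 0 were 2-fold lower, 1 rose and 1 fell, near the shares of 5.46%, 3.14%, 3.86% and 4.91% over all genes. Slc2a2, the glucose transporter GLUT2, had 289 to 763 CPM in the high tail with a median of 632, against 203 to 1021 CPM in the low tail with a median of 745, and its slope was -0.01 ± 0.09. Ucn3, a peptide of mature beta cells, and Abcc8, the sulfonylurea receptor, had tail differences of -0.73 and -0.71 and slopes of -0.13 and -0.09 that did not pass the test. Ero1lb, an oxidase that helps fold proinsulin, was the member that fell, by 0.26 ± 0.08; on library totals its slope was -0.17 and did not pass the test (edgeR, adjusted p = 0.47).

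The member that was higher, Npy, encoding neuropeptide Y, which islet cells express in early life, stood apart by stretch. It had 1.03 to 136 CPM in the high tail with a median of 40.3, against 0.36 to 111 CPM in the low tail with a median of 1.28, so that the tails overlapped over nearly their full ranges. Libraries 66 to 75 had 31.3 to 136 CPM and the 5 high-tail libraries of 76 to 85 had 1.03 to 2.94 CPM; 92.6% of the variance of its log2 CPM lay between stretches. Its slope inside stretches was 0.61 ± 0.17 (edgeR, adjusted p = 0.017).

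In the fit, Ins1 fell by 0.30 ± 0.08 per doubling (edgeR, adjusted p = 0.012), and Iapp had a slope of -0.14 ± 0.06 that did not pass the test (edgeR, adjusted p = 0.16). On library totals Ins1 no longer passed the test, with a slope of -0.22. Within libraries 76 to 85, Iapp had 11370 to 13790 CPM in the 5 of the high tail and 14440 to 15850 CPM in the other 5, with no overlap.

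Genes that mature and store hormones included 4 that fell in the fit. Of 6 prohormone processing genes 0 were 2-fold different between the tails and 1 fell in the fit, Cpe, carboxypeptidase E, by 0.22 ± 0.06. Pcsk2, the convertase that makes glucagon from proglucagon, had a slope of -0.03 ± 0.06, and Pcsk1, the convertase acting first on proinsulin, of -0.08 ± 0.07. Among 11 secretory granule genes, Chga, chromogranin A, was the one that was 2-fold lower, with 1864 to 15320 CPM in the high tail and a median of 3876, against 2734 to 15970 CPM in the low tail and a median of 12290. Its slope of -0.15 ± 0.08 did not pass the test, and 84.1% of its variance lay between stretches. Of the 11 granule genes 3 fell, Scg2, Ptprn and Vamp2, by 0.30, 0.22 and 0.14. Over all genes 4.91% fell and 3.14% were 2-fold lower. On library totals 0 of the 6 processing genes and 0 of the 11 granule genes were called.

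Of 13 genes of the unfolded protein response, 0 were 2-fold different between the tails and 5 fell in the fit, with a median slope of -0.28, beside 4.91% of all genes that fell. On library totals 0 of the 13 were called and the median slope was -0.19. Those that fell were Ddit3, Atf4, Herpud1, Sdf2l1 and Hyou1, stress factors and chaperones of the endoplasmic reticulum. A list of 10 genes that beta cells usually repress had 2 that were 2-fold higher, 1 that was 2-fold lower and 1 that fell. Over all genes the shares were 5.46%, 3.14% and 4.91%. Aldh1a3, a retinal dehydrogenase described as a mark of dedifferentiated beta cells in diabetic mice, was the member that was lower and fell. It had 0.46 to 9.37 CPM in the high tail with a median of 1.17, against 3.09 to 225 CPM in the low tail with a median of 7.75, and fell by 1.20 ± 0.21 per doubling of the ratio inside stretches (edgeR, adjusted p = 0.00014). Libraries 76 to 85 had 4.58 to 9.37 CPM in the 5 of the high tail and 14.2 to 26.2 CPM in the other 5.

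The genes with the largest tail differences were mostly not those called in the fit. Of the 20 genes with the 10 highest and 10 lowest differences at a median of 5 CPM or more, 19 had over 70% of their variance between stretches, from 73.4% to 98.0%, and 4 passed the test in the fit in the same direction. The median share of variance between stretches was 74.5% for the genes 2-fold higher in the high tail, which the grouping of the tails by stretch in part fixes, 47.6% for those that rose in the fit, and 46.6% over all genes tested. Dlk1, an imprinted gene of growth and differentiation that islet endocrine cells express, had the second highest difference, 6.85. It had 265 to 682 CPM in libraries 66 to 75, 3.08 to 14.8 CPM in the high-tail libraries of 76 to 85 and 0.72 to 17.7 CPM in the low tail. Its slope inside stretches was 0.24 ± 0.11 (edgeR, adjusted p = 0.16).

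**Figure D4:**
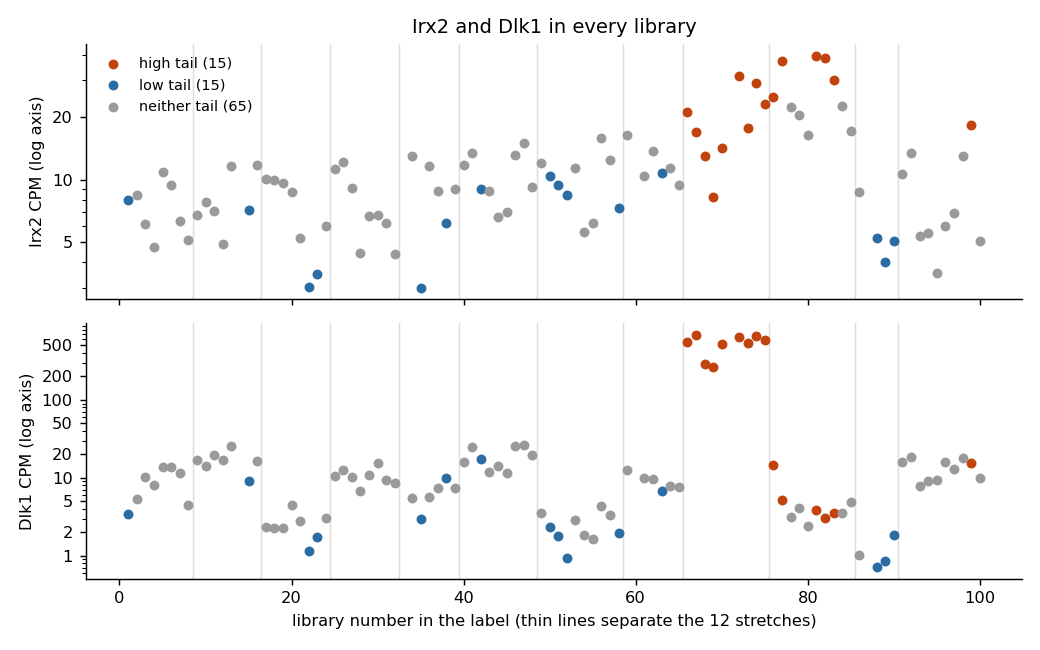
CPM of Irx2 (top) and Dlk1 (bottom), on log axes, in every library by its number. Irx2 reaches its highest levels in high-tail libraries of both stretches from 66 to 85, while Dlk1 is high in libraries 66 to 75 alone, at 265 to 682 CPM.

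The others of those higher were Xist, Rpl19, Fam84a, Car15, Ambp, Col14a1, Atp5g2, Masp2 and Fmo2, of which Xist and Col14a1 rose in the fit. Those lower were Ctrl, Naip2, mt-Co2, Asb11, Tcf24, Vil1, Crb1, Folr1, T2 and mt-Nd4l, of which Tcf24 and Vil1 fell, Vil1 not on library totals. Several share sequence with another gene and are uncertain as single genes: 99.5% of the 31-base words of mt-Co2, 98.9% of mt-Nd4l, 53.6% of Rpl19, 61.3% of Car15, 37.5% of Atp5g2 and 21.1% of Naip2 occur in another annotated gene. Ctrl, the acinar protease chymotrypsin-like gene, had 5.73 to 1413 CPM in the high tail and 84.0 to 7032 CPM in the low tail, and its difference of -5.70 turned to 1.02 when libraries were ranked inside stretches.

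Among genes with a median of 5 CPM or more over all libraries, called in the fit and of the same sign in the tails, the steepest rising included Xist, Peg10, Avpr1b, Kdm6a, Kbtbd11, Gpr119, Enpp2 and Edn3. Peg10, an imprinted gene derived from a retrotransposon, had 6.56 to 64.9 CPM in the high tail with a median of 31.4, against 2.14 to 16.6 CPM in the low tail with a median of 5.94, and rose by 1.26 ± 0.14 per doubling (edgeR, adjusted p = 1.36e-08). Within libraries 76 to 85 its 5 high-tail libraries had 24.7 to 40.5 CPM and the other 5 had 3.97 to 14.7 CPM. Enpp2, autotaxin, rose by 0.61 ± 0.13 and Edn3, endothelin 3, by 0.60 ± 0.11. Under the same limits, which leave out Aldh1a3 and the Y-linked genes given below for their median level, the 10 steepest falling were Dapl1, Tcf24, Aass, Spp1, Kcnh1, Nfil3, Dusp4, Arhgef37, Usp2 and Vgf. Of the genes just named, Kbtbd11, Spp1, Nfil3, Usp2 and Vgf did not pass on library totals.

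Dapl1, a death-associated protein homologue, had 1.93 to 24.1 CPM in the high tail and 5.71 to 42.9 CPM in the low tail, and fell by 1.00 ± 0.18. Kcnh1, a voltage-gated potassium channel, had 12.5 to 35.3 CPM in the high tail and 20.2 to 69.4 CPM in the low tail, and fell by 0.72 ± 0.11. Vgf, a granin-like precursor of secreted peptides, had 2.29 to 45.0 CPM in the high tail and 14.8 to 214 CPM in the low tail, fell by 0.64 ± 0.16, and was lower in the highest-ratio library in 10 of 10 stretches. Tcf24 was lower there in 10 of 10 as well. Both genes were among the steepest falling slopes in these same libraries, so these counts add no separate support.

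Xist, the non-coding RNA that silences one X chromosome in female cells, moved with the ratio inside stretches. It had 0.63 to 1270 CPM in the high tail with a median of 773, against 0.98 to 659 CPM in the low tail with a median of 3.50. Its values fell into a lower and an upper range with none between 11.2 and 48.6 CPM, and 10 of the 15 high-tail libraries, against 5 of the 15 low-tail libraries, were in the upper range. Among these low-tail libraries, library 90 set the edge of the gap at 48.6 CPM and also had 59.2 CPM of the Y-linked Ddx3y; 4 of the low-tail libraries had 100 CPM or more of Xist. In the 11 stretches that held libraries of both ranges, the library with the highest ratio was in the upper range in 11 and the one with the lowest ratio was in the lower range in 10. The slope of Xist was 4.42 ± 1.08 (edgeR, adjusted p = 0.0069), and the Y-linked genes Ddx3y, Uty, Kdm5d and Eif2s3y, named after their values were seen, fell by 7.63, 6.88, 6.10 and 7.43. Kdm6a, an X-linked demethylase gene that escapes silencing, rose by 0.69 ± 0.08.

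Because Xist moved with the ratio, the fit was repeated with log2 CPM of Xist as a further covariate, chosen after seeing the data. The calls then came to 2 rising and 4 falling genes, beside 2250 of 15837 genes at an unadjusted p under 0.05. Rising were Avpr1b and Trpm7, and falling were Kcnab3, Cxx1b, BC029722 and 1110065P20Rik, named after their values were seen; 85.1% of the words of Cxx1b occur in another gene. Slopes shrank and their errors grew. Over the 612 genes called rising, the median slope was 0.22 with the covariate and 0.30 without it, 603 stayed positive, and the median SE over all genes was 0.108 with the covariate and 0.074 without it.

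The alpha and delta lists differed in how they fared with the Xist covariate, a difference that was not tested. The median slope of the alpha factors was 0.46 with the covariate, 0 of 5 passing the test, and that of the delta genes was 0.15, with 0 of 4 passing. Irx2 had a slope of 0.55 (edgeR, adjusted p = 0.080), Rbp4 of 0.19 (edgeR, adjusted p = 0.28) and Sst of -0.04 (edgeR, adjusted p = 0.89). Avpr1b kept a slope of 0.77 that passed the test (edgeR, adjusted p = 0.0097), whereas Kdm6a had 0.11 and Peg10 0.66, which did not.

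**Figure D5:**
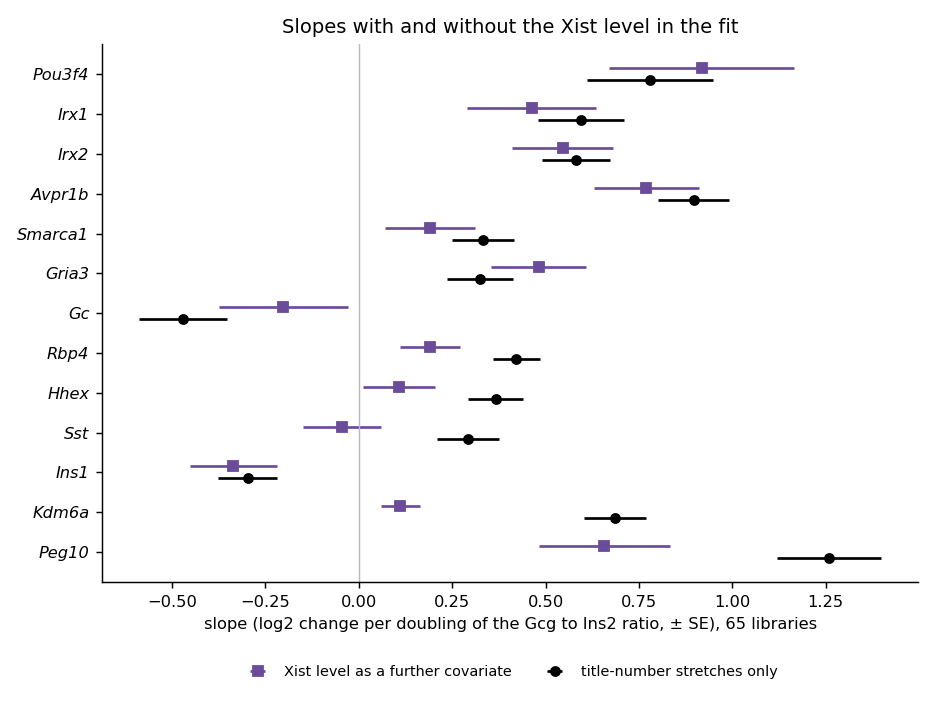
Slopes on the log2 ratio (± SE) in the 65 libraries of neither tail for 13 genes, with the log2 level of Xist as a further covariate (squares) and with the title-number stretches alone (circles). The slopes of Sst and Kdm6a move close to 0 with the covariate, while those of Irx2 and Avpr1b move little.

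Transcripts of other cell types were also compared. Over all genes 5.46% were 2-fold higher, 3.14% were 2-fold lower, 3.86% rose and 4.91% fell. The 20 acinar genes, of the digestive enzyme cells that surround islets, took 0.83% to 31.9% of counts in the high tail with a median of 4.88%, against 0.39% to 34.8% in the low tail with a median of 3.61%; 2 were 2-fold higher and 1 was 2-fold lower, and 0 passed the test in the fit, where their median slope was -0.44. With the acinar share as a covariate the fit called 565 rising and 728 falling genes, of which 540 and 703 were among the calls without it. Summed lymphocyte markers came to 6.36 to 1109 CPM in the high tail with a median of 34.4, against 8.33 to 35.5 CPM in the low tail with a median of 11.6, and 4 of 10 were 2-fold higher while 0 passed the test. Of the other marker lists, macrophage genes had 1 of 10, glial genes 2 of 4, stellate and fibroblast genes 1 of 10 and endothelial genes 0 of 9 that were 2-fold higher, and 0 of these rose in the fit; 1 stellate and fibroblast gene was 2-fold lower and 1 endothelial gene fell, though not on library totals. For duct markers 2 of 8 were 2-fold lower and 1 fell, Spp1, osteopontin, a call lost on library totals, which had 16.7 to 106 CPM in the high tail and 11.6 to 928 CPM in the low tail. Genes of cell division gave 0 of 12 and immediate early genes 0 of 10, between the tails and in the fit, and erythroid genes 1 of 5 between the tails and 0 in the fit. The part of these cell types in the results above, beyond the acinar covariate, was not tested.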

How the data were processed

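The authors deposited a table of estimated counts for 20638 genes in 95 libraries, without normalization, of which 67.7% of values were whole to within 1e-06, and a table of variance-stabilised values on a log2-like scale. The submitters' processing notes name the build GRCm38 and DESeq2; aligner, counting tool and strand use are not given in the sources used here. Control transcripts were spiked in, per the labels' protocols, but the table holds 0 of their rows. All 95 libraries are unassigned to groups by the labels. The ratio, the tails, the gene lists and the stretches of library numbers were chosen with earlier results of these data known, so a pattern seen there has no independent support here.

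CPM were estimated counts over the column sum. Genes with 1 CPM or more in at least 10 libraries were kept, 15839 in all. Tail differences used a pseudocount of 0.5 CPM. Slopes came from edgeR 4.0.16 (R 4.3.3) on rounded counts with TMM scaling. Quasi-likelihood tests were two-sided, with Benjamini-Hochberg adjustment over all genes kept. The fit was tested on simulated counts that had no differences between stretches and the same dispersion for every gene. It therefore cannot show how the fit behaves where stretches differ. P-values measure the spread between libraries, some of which may share an animal, and would then be too small. Genes were named when they belonged to the islet lists, were among the 10 highest or lowest tail differences at a median of 5 CPM or more, or, with the same median and the sign of the tail difference, were among the 10 steepest called slopes of each sign; predicted genes and pseudogenes were left out, and a few further genes chosen this way are not reported. List genes beyond the islet lists were named after their values were seen. Sequence overlap was the percentage of 31-base words of a gene's transcripts that also occur in a single other GENCODE M21 gene. Alternatives were DESeq2 1.42.0, other scalings and filters, tails of 10 and 20 libraries, an Ins1 plus Ins2 denominator, ranking inside stretches, 8 sets of numbers, leaving out stretches, and acinar and Xist covariates.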

Additional observations from a re-analysis of the deposited data

How the results depend on the processing

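The limits come first. The tails hold no stretch in common, the low threshold lies at no gap, depth was similar between the tails, and the low levels of Pou3f4 and Ghrl leave their values imprecise. No paired analysis was possible because the labels give no groups or replicate numbers. The next counts cover named genes called in the fit, from the lists, by the rule, or named after their values were seen. Slopes kept their sign and call for 44 of 44 with DESeq2, 43 with the acinar covariate and 41 with 8 sets of numbers. They did so for 28 on library totals, 17 with no term for the stretches and 1 with Xist as a covariate. Xist itself could not pass with its own covariate. The cause was not tested. The denominator of Ins1 plus Ins2 chose the same 15 libraries in each tail.

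Genes not overlapping and lower in the high tail, 1 in the main comparison, numbered 19 with TMM-adjusted CPM, 22 with DESeq2 size factors, 6 on totals without acinar and hormone genes, 22 on the deposited variance-stabilised values, 7 with 10 libraries a tail, 0 with 20, 0 when ranked inside stretches, 3 without libraries 91 to 100 and 0 without libraries 66 to 85. Those not overlapping and higher numbered 249 with 10 libraries a tail, 0 with 20, 0 when ranked inside stretches, 5 without libraries 91 to 100 and 0 without libraries 66 to 85. Genes 2-fold higher and lower numbered 260 and 230 on the variance-stabilised values, which compress low levels by construction, 535 and 319 with 20 libraries a tail, 375 and 137 when ranked inside stretches, and 228 and 120 without libraries 66 to 85.

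When ranked inside stretches, the median tail difference was 0.48 for alpha factors, 0.29 for alpha surface and secreted genes, -0.22 for beta factors, -0.17 for prohormone processing and 0.67 for delta genes, and the differences of Ambp, Ctrl, Spp1 and Nfil3 turned to -0.27, 1.02, 0.47 and 0.039. Without libraries 66 to 85 the same lists had 0.77, 0.26, -0.27, -0.23 and 0.65, granule genes had -0.25, and Ambp, Ctrl and T2 turned to -0.36, 1.30 and 0.23.

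In the fit, 109 genes rose and 145 fell with no term for the stretches, 120 and 33 on library totals, 1253 and 1359 with all libraries, 376 and 401 without libraries 91 to 100, 2 and 4 with Xist as a covariate, and 206 and 201 with all libraries and Xist; 499 fell without libraries 76 to 85. With no term for the stretches, median slopes were 0.72 for alpha factors, 0.33 for alpha surface genes, 0.038 for beta factors, 0.019 for beta function, 0.21 for delta genes and -0.38 for the unfolded protein response, and Vil1 turned to 0.050. On library totals they were 0.014 for prohormone processing and -0.034 for granule genes. With all libraries they were 0.27 for alpha surface genes and -0.17 for the unfolded protein response; without libraries 91 to 100, 0.37, -0.054 for granule genes and -0.17; with the acinar covariate, 0.26 for alpha surface genes. With Xist as a covariate they were 0.46 for alpha factors, -0.081 for other islet hormones and 0.15 for delta genes, and Sst turned to -0.045; the slope of Xist itself, -0.041, is held near 0 by its own covariate and is no result. With all libraries and Xist they were 0.40, 0.33, 0.22 and -0.12 for alpha factors, alpha surface genes, delta genes and the unfolded protein response, and Xist, held by its own covariate, had -0.041.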
